A study of Mus musculus with 3 samples.

Results

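The barcodes described here belong to the single LPS library of a droplet study of the mouse aorta, and at least 40% of the RNA counted in each of them came from 1 transcript, Gm42418. They were chosen from measured values. A barcode was a member where it held at least 500 unique molecular identifiers (UMIs, each counting 1 captured RNA molecule), at least 300 genes, at most 15% mitochondrial UMIs and at least 40% Gm42418 among all its UMIs. The rule found 3659 barcodes, which were 71.0% of the 5156 LPS barcodes that passed the other 3 limits (95% Clopper-Pearson interval 69.7 to 72.2), out of 6000 LPS barcodes and 12082 in the series. Since Gm42418 chose the members, its share is given as a description only.

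The study dislodged cells from the inner lining (intima) along the lesser curvature of the arch in C57Bl/6J wildtype mice aged 12 to 13 weeks, with 5 to 10 males and females pooled into each library. There were 2 libraries from untreated mice (control replicates 1 and 2) and 1 from mice given 30 µg ultrapure LPS, a bacterial cell wall component, intravenously 18 hours earlier. All animals were perfused with the transcription blocker actinomycin D and heparin, the tissue was digested with Collagenase D and DNAse I, and libraries were made with the version 3 Chromium 3′ kit. With 1 LPS library the differences below have no replicate check, no test was possible, and treatment and library cannot be told apart. Intervals are exact, at 95%, and cover counting error only.

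Gm42418 overlaps an 18S ribosomal RNA-related sequence, and counts of it in poly(A)-primed libraries are generally read as captured ribosomal RNA. Ribosomal RNA is the most abundant RNA of any cell and carries no information on cell type, so what such a barcode holds has to be read from its remaining RNA. Arterial smooth muscle makes contractile proteins and much of the elastic and collagenous matrix of the wall. LPS signals through Tlr4 and Myd88 to NF-κB and interferon pathways, and the vessel wall answers with acute-phase proteins, chemokines, leukocyte adhesion molecules and guanylate-binding GTPases.

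The defining transcript is shown by 2 stretches of 100 bases, from the GENCODE transcript on the plus strand of the GRCm38 (mm10) build, because every member was selected on it. Capitals mark the 20-base window of the transcript with the most A, 11 of 20.
Gm42418 A-richest part, chr17:39847127-39847226: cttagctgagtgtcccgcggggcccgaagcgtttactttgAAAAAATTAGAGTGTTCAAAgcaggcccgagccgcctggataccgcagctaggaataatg
Gm42418 3′ end, chr17:39848689-39848788: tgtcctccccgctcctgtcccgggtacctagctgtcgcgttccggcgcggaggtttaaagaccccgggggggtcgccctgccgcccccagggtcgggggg
Gm42418 (ENSMUSG00000098178) is annotated as a lincRNA of 1831 bases on chromosome 17, from 39846958 to 39848788, with 60.2% G and C. Its last 100 bases hold 8 A. RefSeq lists it as a synonym of the pseudogene Rn18s-rs5, at 39846354 to 39848202, and 1245 bases of the 2 overlap. AY036118, an antisense lincRNA of 923 bases, lies wholly inside it on the other strand. Gm26917 ends 616 bases upstream. Reads of overlapping genes can be split by the authors' counting, so the values of these 3 are uncertain as separate genes.

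Gm42418 shares fell into separate peaks in the LPS library. The members ran from the 40% limit to 74.5% with a median of 57.1%, and 420 lay from 40 to 50%, 2314 from 50 to 60%, 917 from 60 to 70% and 8 at 70% or above. Just inside the limit, 165 barcodes held 40 to 45%, and just outside, 143 held 35 to 40%. The same rule took 28 of 431 kept barcodes of control replicate 1, or 6.50% (4.36 to 9.25). It took 0 of 2697 in control replicate 2, where the limit set at 3 barcodes is 0.111% and the Clopper-Pearson upper bound 0.137%, and the highest Gm42418 share there was 8.61%. A further 465 LPS barcodes with at least 40% Gm42418 were left out by the mitochondrial limit alone. Of 200 such barcodes left out in control replicate 1, 197 had under 300 genes and 38 were over the mitochondrial limit.

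**Figure D1:**
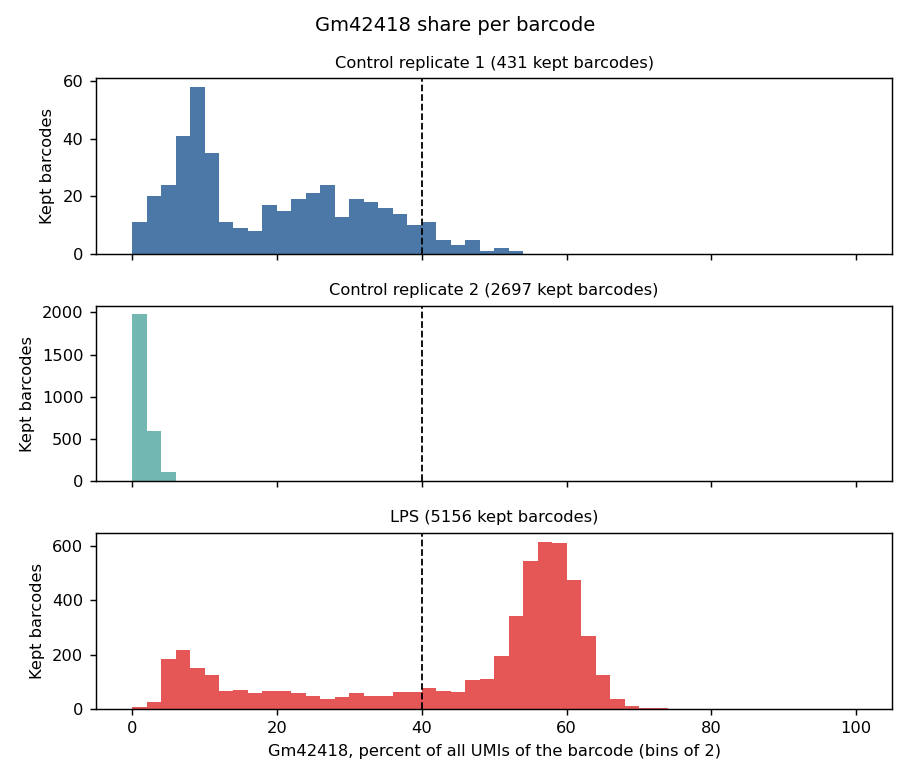
Gm42418 share of each kept barcode (x axis, percent of all UMIs, bins of 2) against the number of barcodes (y axis), 1 panel per library; the dashed line is the 40% limit. The LPS panel has its main peak above the limit, where 3659 barcodes lie, while control replicate 1 has 28 there and control replicate 2 none.

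The members were shallow. They held a median of 1901 UMIs and 521 genes, of which 1099 UMIs were Gm42418. The deepest held 7948 UMIs. The deposited LPS library had no barcode under 1750 UMIs, against a lowest of 501 and 1117 in the control libraries, so how many barcodes of this kind lay below that depth is not shown. Leaving out Gm42418 and the 4 haemoglobin genes, the members held a median of 817 UMIs each and 3238403 together, called the remaining UMIs from here on. Every share below is of remaining UMIs, levels of single genes are counts per 1000000 remaining UMIs (CPM), and 3′ UMI counts were not scaled for transcript length. Haemoglobin took a median of 0.693% of UMIs other than Gm42418. The members shared 1 barcode sequence with control replicate 1 and 4 with control replicate 2.

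Over all kept LPS barcodes, the number of Gm42418 UMIs varied less than the rest of their RNA did. From the 5th to the 95th percentile, kept LPS barcodes held 629.75 to 1599.75 Gm42418 UMIs and 607 to 5128 remaining UMIs. Within members the 2 ranges were alike, at 891 to 1608.3 and 668 to 1300. No deposited LPS barcode had under 1750 UMIs. One with few remaining UMIs and little haemoglobin could therefore appear only with many Gm42418 UMIs. The ranges and correlations here are partly set by that depth and by the 40% rule. Members had a median of 1099 Gm42418 UMIs, haemoglobin-rich barcodes 754.5, and LPS barcodes with at least 3 distinct T cell and NK cell markers and 2 more than of any other class (62 lymphoid-gated barcodes) 834. Endothelial-gated LPS barcodes, with a median of 7326.5 remaining UMIs, held 1130. Kept barcodes had a median of 326 in control replicate 1 and 60 in control replicate 2. Over all kept LPS barcodes the Spearman correlation of Gm42418 UMIs with remaining UMIs was 0.10, as a description over 5156 barcodes of 1 library that pools unlike groups. Within groups it was 0.13 in members, 0.54 in the other LPS barcodes without haemoglobin-rich ones (n = 747), 0.44 in control replicate 1 (n = 431) and 0.50 in control replicate 2 (n = 2697). Members and haemoglobin-rich barcodes had the fewest remaining UMIs, with medians of 817 and 692, against 2901 in the other kept LPS barcodes. Members with a higher Gm42418 share had fewer remaining UMIs (Spearman −0.70, n = 3659, from measures that share a total).

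**Figure D2:**
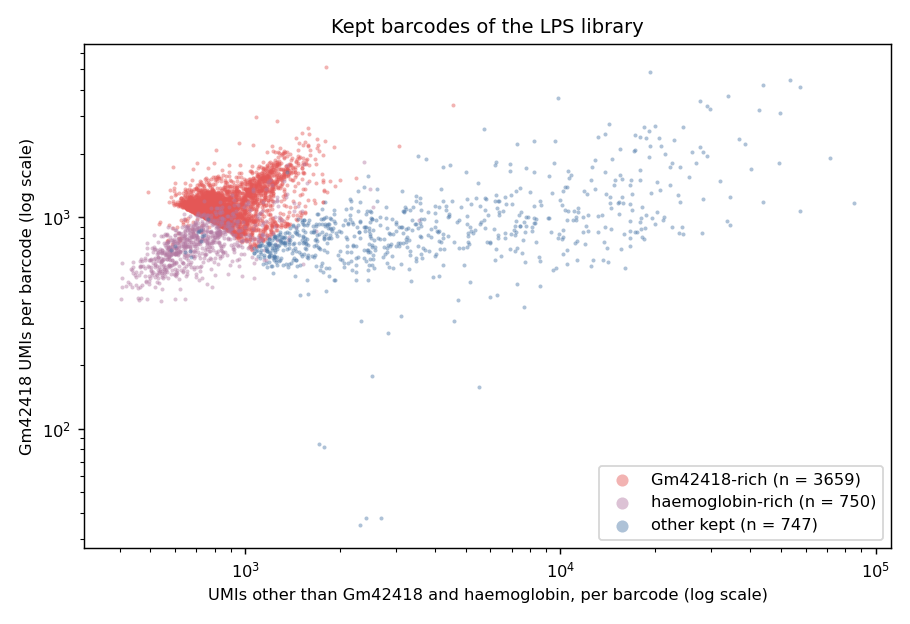
Gm42418 UMIs (y axis, log scale) against UMIs other than Gm42418 and haemoglobin (x axis, log scale) of the 5156 kept LPS barcodes, 1 point each, coloured by group. Gm42418-rich barcodes sit at the left with a median of 817 remaining UMIs, and other barcodes extend to the right at a similar height.

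The other ribosomal RNA-like transcripts were read beside Gm42418. AY036118 had 16686 CPM in the members and was found in all of them. Per 100 Gm42418 UMIs it gave 1.28 UMIs in members (1.27 to 1.29), 1.69 in haemoglobin-rich LPS barcodes, 1.90 in the other LPS barcodes, 1.82 (1.61 to 2.04) in control replicate 1 barcodes of the same rule and 13.2 in control replicate 2. Since the rule selected high Gm42418, the denominator, this ratio is a description. It was 1.60 in LPS barcodes with 35 to 40% Gm42418, 1.57 in those with 40 to 45% and 1.25 in members with 50 to 60%. Gm26917 was the most uneven gene of the members: 16.0% of them had a UMI of it, and 1 member had 256. Lars2, the mitochondrial leucyl-tRNA synthetase, stood at 11112 CPM in members, 3011 in all other kept LPS barcodes and 152 in control replicate 2. Per 100 Gm42418 UMIs, Lars2 gave 0.852 UMIs in members, 1.15 (0.985 to 1.33) in control replicate 1 barcodes of the same rule and 1.09 in control replicate 2. In CPM Lars2 thus differed 73.3-fold between members and control replicate 2, while per Gm42418 UMI, the measure of the rule, the difference was far smaller.

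Against the 1497 other kept LPS barcodes, the remaining RNA of the members was richer in smooth muscle, matrix and mitochondrial transcripts and poorer in leukocyte transcripts. Of 10420 genes with at least 50 UMIs over both pools, 713 were at least 2-fold higher in members (6.84%) and 1622 at least 2-fold lower (15.6%). The median log2 ratio was −0.11. With haemoglobin kept in the denominator, the counts were 4293 higher (41.2%) and 513 lower (4.92%) and the median was 0.85, because haemoglobin takes at least 50% of the UMIs other than Gm42418 in 750 of the other barcodes. Higher genes made up 30.5% of the calls as reported and 89.3% with that denominator. Without those 750 barcodes the counts were 806 (7.84%) and 1734 (16.9%).

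Of 47 smooth muscle genes tested, 40 were at least 2-fold higher in members and 0 lower, with a median log2 ratio of 1.90, or 46 and 0 and a median of 2.86 with haemoglobin in the denominator. Together the list took 1.58% of remaining UMIs in members (1.57 to 1.60), 0.445% in all other kept LPS barcodes, 0.352% in those that were not haemoglobin-rich, 1.28% in haemoglobin-rich ones, 1.93% (1.73 to 2.14) in control replicate 1 barcodes of the same rule, 0.329% in other control replicate 1 barcodes and 1.03% in control replicate 2. The members were therefore above the other LPS cell barcodes. Their pooled share was below that of the control barcodes of the same rule, but the interval does not cover the spread between barcodes. Those control barcodes were uneven. Thinned to 300 remaining UMIs each, they held a median of 4 UMIs of the list, a mean of 6.86 and at most 29. Members held a median of 5 and a mean of 4.83. The typical control barcode of the same rule was thus not above the typical member. Myh11, the smooth muscle myosin heavy chain, had 2094 CPM in members and 319 in other LPS barcodes, 6.56-fold higher (6.23 to 6.92). In control replicate 1 barcodes of the same rule it had 2353, and in control replicate 2 it had 484. Tagln, the actin-binding transgelin, had 1415 against 267 (5.31-fold, 5.00 to 5.63), and 1423 in the control replicate 1 barcodes.

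Other contractile genes were higher too. Acta2, smooth muscle actin, was 5.06-fold higher than in other LPS barcodes, at 1011 CPM, and Cald1, which tethers myosin to actin, 4.70-fold higher at 1437. Cnn1, calponin, was 6.59-fold higher at 84.9 CPM, and Kcnmb1, the beta subunit of the large-conductance potassium channel of smooth muscle, 7.24-fold higher at 56.5. Myocd, the coactivator that switches on contractile genes, was 6.48-fold higher at 62.4. The pericyte regulator of G-protein signalling Rgs5 was 7.72-fold higher at 54.7 CPM. Filamin A (Flna), an actin cross-linker, and the actin-severing Dstn differed less, at 3.01-fold and 2.69-fold. Within the list the balance differed from control replicate 2: members had 4.32-fold more Myh11 in CPM and 4.83-fold more Cald1, yet 0.495 times the Acta2, 0.466 times the Cnn1 and 0.120 times the Sost, an inhibitor of Wnt signalling expressed in the aortic wall. The labelled markers were thus present, and 83.8% of members had a mural marker even after each barcode was thinned to 300 remaining UMIs. That share was 76.0% in haemoglobin-rich and 31.6% in the other LPS barcodes. It was 82.1% in control replicate 1 barcodes of the same rule and 82.5% in kept barcodes of control replicate 2, so it was not particular to members.

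Detection of these genes has to be read beside barcodes that should lack them. A Myh11 UMI was found in 81.7% of members at a median of 817 remaining UMIs, and in 69.4% of lymphoid-gated LPS barcodes at a median of 5080. Thinned to 300 remaining UMIs per barcode, which left out no barcode, the shares were 46.7% (45.03 to 48.28) and 1.61% (0.0408 to 8.66), with 35.7% in haemoglobin-rich and 11.8% in the other LPS barcodes. For Tagln the thinned shares were 33.9% in members and 4.84% in lymphoid-gated barcodes. Counted per barcode without thinning, the smooth muscle list gave a mean of 14.0 UMIs per member (13.9 to 14.1) and 13.5 per lymphoid-gated barcode (12.6 to 14.5). It gave 12.6 (11.3 to 14.0) per control replicate 1 barcode of the same rule. The near-equal means of members and lymphoid-gated barcodes come from unlike depths. Thinned to 300 remaining UMIs, the list gave 4.83 per member and 0.5 per lymphoid-gated barcode. Myh11, Tagln and Acta2 are mural markers. The lymphoid, endothelial, phagocyte and fibroblast gates needed at least 2 more distinct markers of their class than mural markers. The gates therefore partly set the thinned shares and the levels of these genes in gated barcodes, which are a description only. Without thinning, Myh11 and Tagln gave more UMIs in members than in lymphoid-gated barcodes, beyond counting error, while the intervals of Acta2 overlapped. Myh11 gave 1.85 UMIs per member (1.81 to 1.90) and 0.968 per lymphoid-gated barcode (0.738 to 1.25). Tagln gave 1.25 (1.22 to 1.29) and 0.710 (0.516 to 0.953). Acta2 gave 0.895 (0.864 to 0.926) and 0.742 (0.543 to 0.990), with 1.37 per endothelial-gated LPS barcode. Endothelial-, phagocyte- and fibroblast-gated LPS barcodes, which are deeper, held more of the list than members, at 43.7, 21.4 and 20.2 UMIs. They held less Myh11, at 1.02, 0.840 and 1.16. Whether RNA free in the suspension gave these UMIs was not tested beyond these values.

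Smooth muscle RNA was spread over nearly all members and occurred together with markers of other wall cells. Of 8 mural markers, 27 members had 0, 274 had 1, 801 had 2, 1209 had 3, 889 had 4, 361 had 5, 88 had 6 and 10 had 7. Of the 2557 members with at least 3, 70.7% also had an endothelial marker and 87.8% a fibroblast marker. Among the 27 members with 0 mural markers these shares were 55.6% and 85.2%. Thinned to 300 UMIs, the smooth muscle list gave 4.83 UMIs per member with a variance 1.10 times its mean, where random sampling of 1 common pool gives a ratio near 1. The same ratio was 1.75 in other LPS barcodes without the haemoglobin-rich ones. For the acute-phase list it was 1.55 in members and 8.30 in those others. For nuclear-retained RNA, a list that includes the uneven Gm26917, it was 1.77 and 12.9. Haemoglobin-rich barcodes lay near the members, with 1.21 for smooth muscle, 1.32 for the acute-phase list and 2.10 for nuclear-retained RNA. Over 833 genes the median ratio in members was 1.06, with 18 genes above 1.5. After Gm26917 (6.74), the most uneven genes were Ccl5 (3.04), a T cell and macrophage chemokine, Prg4 (2.68), lubricin, S100a9 (2.66), a neutrophil protein, and Saa3 (2.14), an acute-phase apolipoprotein. Prg4 was picked here for this ratio. 2 marker lists were more uneven in members than in those others, namely platelet markers at 3.62 against 1.11 and heart muscle markers at 3.09 against 2.66.

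**Figure D3:**
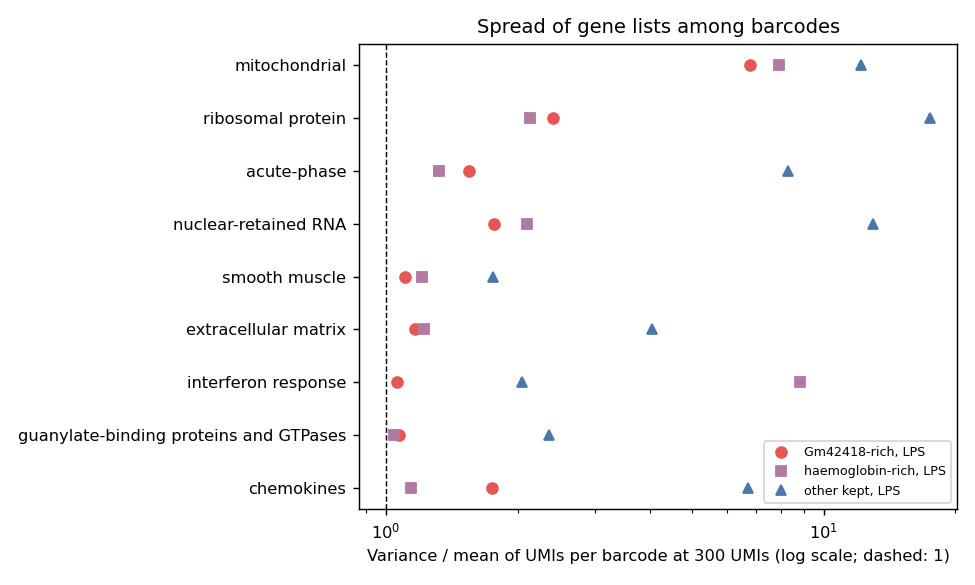
Variance divided by mean (x axis, log scale) of the UMIs of 9 gene lists (y axis) after each LPS barcode was thinned to 300 remaining UMIs; the dashed line is 1. Gm42418-rich barcodes lie left of the other kept barcodes, drawn without the haemoglobin-rich ones, in every list shown (1.55 against 8.30 for the acute-phase list), and haemoglobin-rich barcodes, drawn separately, lie at 1.32 for that list.

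The nearest profile to the members was that of haemoglobin-rich barcodes of the same library. These are 750 LPS barcodes with at least 50% haemoglobin, and a median of 90.8%, among the UMIs other than Gm42418. With haemoglobin set aside, Gm42418 was 50.9% of their UMIs and 56.6% of the members'. Across 7201 genes the Spearman correlation of CPM between the 2 pools was 0.93, and 91.6% of 7107 genes outside the mitochondrial and ribosomal protein lists lay within 2-fold. Against all other kept LPS barcodes the correlation was 0.83, and 0.80 without the haemoglobin-rich ones. It was 0.77 for endothelial-gated, 0.73 for fibroblast-gated and 0.71 for mural-gated LPS barcodes and 0.61 for mural-gated control replicate 2 barcodes. Control replicate 1 barcodes of the same rule, with only 18273 remaining UMIs, gave 0.50. Genes are not independent replicates, and the pools differ in depth. The mural-gated LPS pool, 45 barcodes with 135696 remaining UMIs, is the smallest of these LPS pools.

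Of 7663 genes tested against haemoglobin-rich barcodes, 572 (7.46%) were at least 2-fold higher in members and 190 (2.48%) lower, around a median log2 ratio of 0.33. Red cell genes were among the lower ones: Alas2, the erythroid enzyme of haem synthesis, with 30.0 against 13698 CPM, and Bpgm, a red cell enzyme of glycolysis, with 22.2 against 8085. Against that background the smooth muscle, acute-phase and guanylate-binding lists barely differed. Of 46 smooth muscle genes 2 were higher and 0 lower, of 27 acute-phase genes 1 and 0, and of 13 guanylate-binding genes 0 and 0. The interferon list and the translation factors had more lower genes than the 2.48% of all genes. Of 37 interferon genes 1 was higher and 4 were lower, and of 19 translation factors 0 and 3. Myh11 was 1.33-fold higher in members than in haemoglobin-rich barcodes, Lcn2 1.31-fold and Malat1 1.15-fold.

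**Figure D4:**
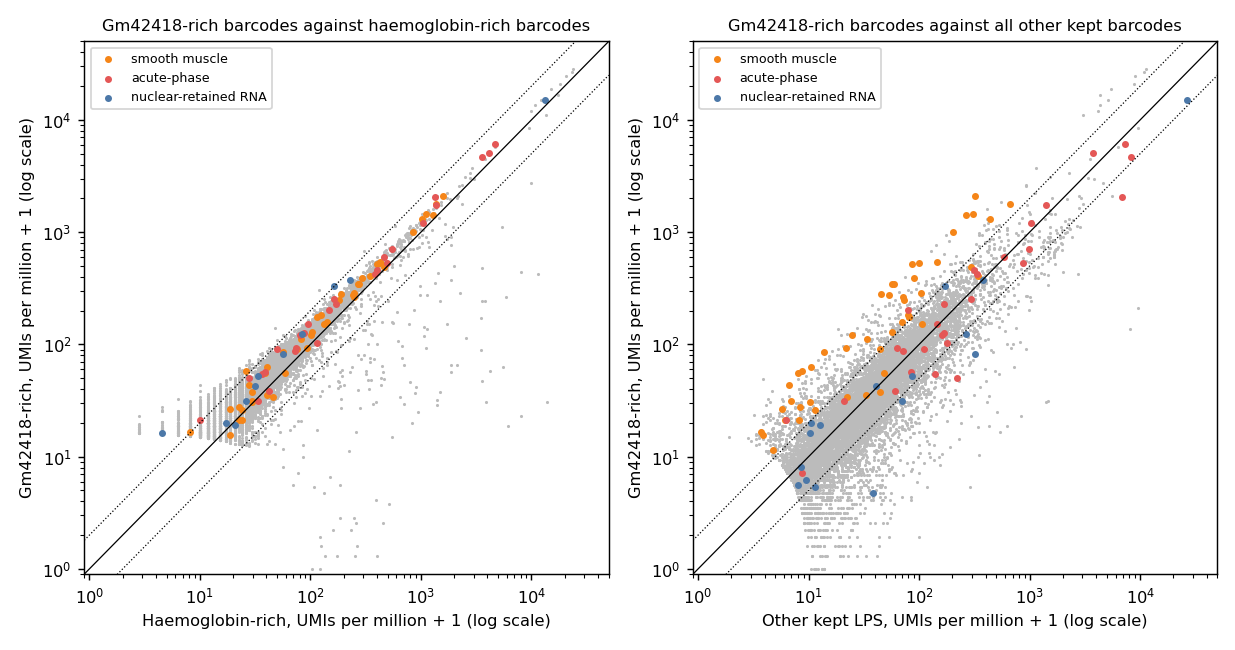
CPM plus 1 (counts per 1000000 remaining UMIs) of each tested gene (both axes log scale) in Gm42418-rich barcodes (y) against haemoglobin-rich (left, x) and all other kept LPS barcodes (right, x); dotted lines are 2-fold either way and 3 lists are coloured. Most genes of the lists lie within the 2-fold lines on the left, and most smooth muscle genes lie above them on the right, with Myh11 at 2094 against 319.

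Nuclear RNA was present and was not enriched over the other kept LPS barcodes. The nuclear-retained list took 1.63% of the members' remaining UMIs (1.61 to 1.64), 2.79% in other kept LPS barcodes and 1.38% in haemoglobin-rich ones. Malat1 made up most of the share in members and in other LPS barcodes, and the list also holds Gm26917. In control replicate 1 barcodes of the same rule it took 2.62% (2.39 to 2.86). Of 16 genes tested, 1 was at least 2-fold higher than in other LPS barcodes and 5 were lower, with a median log2 ratio of −0.66, which became 0.30 with haemoglobin in the denominator. Malat1, the abundant nuclear-speckle RNA, had 15159 CPM in members and 26474 in other LPS barcodes, 0.573 times as much. It was found in every member, at a mean of 13.4 UMIs, against 168 per lymphoid-gated barcode. Neat1, the scaffold of paraspeckles, was at the same level as in other LPS barcodes, 376 and 374 CPM, and 1 member held 55 Neat1 UMIs. Kcnq1ot1, an imprinted nuclear RNA, was 0.463 times and Xist, the X-inactivation RNA, 0.255 times the level of other LPS barcodes.

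Transcripts of splicing factors, many of which keep introns and wait in the nucleus, were close to the rest of the library. Of 24 tested, 0 were higher and 1 was lower, or 4 and 0 with haemoglobin in the denominator. Ddx5, an RNA helicase, had 1027 CPM against 859 in other LPS barcodes, Srrm2, a speckle protein, 518 against 483, and Luc7l3 217 against 164. Srsf7 was the member below 2-fold, at 0.489 times.

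Mitochondrial transcripts were higher and ribosomal protein transcripts lower. All 13 mitochondrial genes tested were at least 2-fold higher than in other LPS barcodes, and the list took 17.1% of remaining UMIs against 6.24%. Haemoglobin-rich barcodes had 14.2% and control replicate 1 barcodes of the same rule 14.1%. The rule used the mitochondrial share of all UMIs, with a limit of 15% for every kept barcode, and since Gm42418 is in that total, the share of remaining UMIs can exceed the limit, with a highest of 36.1% in a member. These values are therefore a description. mt-Atp6, a subunit of ATP synthase, was the leading gene after Gm42418, with 28198 CPM against 11376, and mt-Nd2, of complex I, was 3.48-fold higher at 18982. The ribosomal protein list took 5.72% against 11.4%, with 40 of 82 genes at least 2-fold lower and 1 higher. The median gene of that list stood at −0.98 on the log2 scale, where all genes had −0.11. With haemoglobin in the denominator 1 of 82 was lower and 2 were higher, and the list's median was −0.02 where all genes had 0.85, so the list lay below the median of all genes under both. Without the haemoglobin-rich barcodes 43 of 82 were lower and 1 higher. Control barcodes also held more ribosomal protein RNA than the members did: 10.0% in the same-rule barcodes of replicate 1 and 15.3% in replicate 2.

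Acute-phase RNA was abundant in the members. The list took 2.53% of their remaining UMIs (2.51 to 2.54), 3.35% in other LPS barcodes and 1.97% in haemoglobin-rich ones. In control replicate 1 barcodes of the same rule it took 0.0985% (0.0584 to 0.156), from 18 UMIs, and in control replicate 2 it took 0.0626%. The LPS pools thus lay far above all control pools. Lcn2, lipocalin 2, which withholds bacterial iron carriers, was found in 97.2% of members at 4707 CPM. It had 8172 in other LPS barcodes and 3584 in haemoglobin-rich ones. The control barcodes of the same rule held 0 Lcn2 UMIs, so members were at least 28.7-fold higher against a floor of 3 UMIs over that group. Mt2 and Mt1, metal-binding metallothioneins, had 5017 and 6135 CPM. Mt2 was at least 30.6-fold higher than in the same-rule control barcodes, which held 0 UMIs of it, and Mt1 was 22.4-fold higher on 5 UMIs. Cp, the copper carrier ceruloplasmin, had 1733 and Saa3 2044 CPM, with 1 UMI each in those control barcodes.

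Within the LPS library the acute-phase genes had no common direction. Of 28 tested, 2 were at least 2-fold higher and 3 lower in members than in other barcodes, with a median log2 ratio of −0.23, or 0.73 with haemoglobin in the denominator. Over all genes 6.84% were higher and 15.6% lower and the medians were −0.11 and 0.85, so these counts lie near the background. Steap4, a metalloreductase, was 2.58-fold higher, and Saa2 3.87-fold higher from 20.4 CPM. Saa3 stood at 0.300 times and Cd14, the LPS co-receptor of phagocytes, at 0.220 times. Counted per barcode, the list gave a mean of 22.4 UMIs in members (22.2 to 22.5), 21.6 in lymphoid-gated barcodes (20.5 to 22.8), 445 in endothelial-gated and 333 in phagocyte-gated LPS barcodes. Lcn2 gave 4.17 UMIs per member, 2.45 (2.08 to 2.87) per lymphoid-gated barcode and 167 per endothelial-gated barcode.

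**Figure D5:**
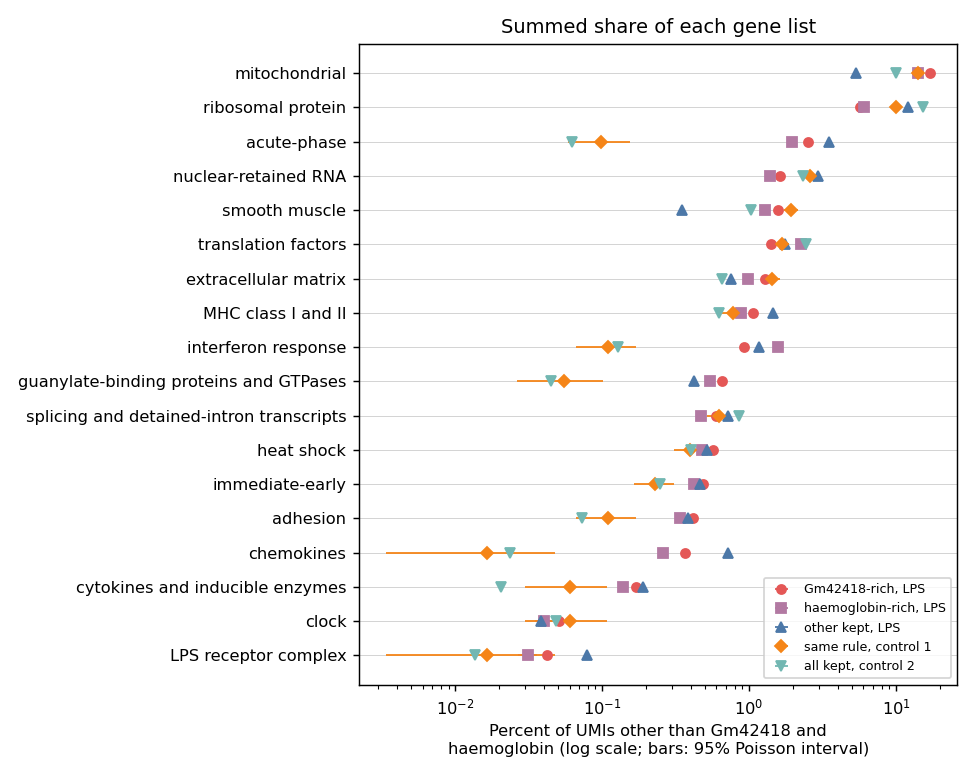
Summed share of 18 gene lists (y axis) in remaining UMIs (x axis, percent, log scale) for 5 pools of barcodes; bars are 95% Poisson intervals. The 3 LPS pools lie right of the control pools for the acute-phase list (2.53% in Gm42418-rich barcodes, 0.0985% in control barcodes of the same rule), and Gm42418-rich and haemoglobin-rich barcodes lie together for smooth muscle genes.

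Signalling genes of the LPS response were there at lower levels. The inhibitor Nfkbia, an early NF-κB target, had 1202 CPM in members, 1024 in other LPS barcodes and 192 in control replicate 2. The receptor Tlr4 had 34.3 and its adaptor Myd88 52.2 CPM, against 33.2 and 74.2 in other LPS barcodes. Irak3, which restrains that pathway, had 85.2 against 93.3, and 3.46 in control replicate 2. Of the 10 receptor-complex genes tested within the library, 0 were higher and 2 lower in members, or 2 and 1 with haemoglobin in the denominator.

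Chemokines took 0.365% of remaining UMIs in members, 0.670% in other LPS barcodes and 0.0164% (0.00339 to 0.0480) in the same-rule control barcodes. Cxcl1, a neutrophil attractant, had 718 CPM in members, above the 478 of other LPS barcodes. Cxcl9 and Cxcl10, which attract T cells, had 359 and 322 CPM, against 353 and 526 in other LPS barcodes and 1.29 and 0.322 in control replicate 2. Ccl5 had 1128 against 2662, and Cxcl13, a B cell attractant, 91.1 against 678. Of 18 tested, 1 was higher and 5 were lower in members, or 7 and 1 with haemoglobin in the denominator, beside 41.2% and 4.92% of all genes under that denominator. Il6, the inducer of the acute phase, had 113 CPM in members and 60.1 in other LPS barcodes, and Csf3, the neutrophil growth factor, 151 and 275. Both had 0 UMIs in control replicate 2, so members were at least 466-fold and 626-fold higher against the floor of 3 UMIs. Ptgs2, the inducible prostaglandin synthase, had 304, 187 and 3.62.

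Guanylate-binding proteins and related GTPases, interferon-induced defences against intracellular microbes, were the inflammatory list with the largest share relative to other LPS barcodes: 0.656% in members, 0.436% in other LPS barcodes, 0.538% in haemoglobin-rich ones and 0.0547% (0.0262 to 0.101) in same-rule control barcodes. Of 14 tested within the library, 1 was higher (Gbp3, 2.42-fold, 787 CPM) and 1 lower, or 10 and 0 with haemoglobin in the denominator. Gbp2 had 1731 CPM against 946, and Iigp1 1239 against 1003. The interferon list took 0.928% in members, 1.21% in other LPS barcodes and 1.57% in haemoglobin-rich ones. Of its 38 genes tested within the library, 0 were higher and 9 lower, or 11 and 0 with haemoglobin in the denominator. Irf7, a master regulator of the type I response, had 610 CPM in members, 546 in other LPS barcodes and 9.99 in control replicate 2. Isg15, a ubiquitin-like protein, had 475 in members, 990 in other LPS barcodes and 3579 in haemoglobin-rich ones.

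Adhesion molecules for leukocytes were at the level of the rest of the library. Vcam1 had 1161 CPM in members and 1110 in other LPS barcodes, Selp, P-selectin, 1032 and 1216, and Icam1 514 and 497. In control replicate 2 these genes had 157, 27.2 and 38.1. The antigen-presentation list took 1.06% against 1.39%, with H2-K1, a class I heavy chain, at 3339 and 2270 and Cd74, the class II chaperone, at 787 and 1977. Of 16 tested, 0 were higher and 10 lower, and with haemoglobin in the denominator 2 were higher and 0 lower.

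Most acute-phase, chemokine, interferon and guanylate-binding genes were higher in members than in control replicate 2 and in the other kept barcodes of control replicate 1. Gene by gene this was less clear against control replicate 1 barcodes of the same rule, where many genes had 0 UMIs. Against control replicate 2, 2119 of 12043 genes were at least 2-fold higher in members (17.6%) and 3623 lower (30.1%). Against the other kept barcodes of control replicate 1, 23.4% of 9030 genes were at least 2-fold higher and 21.3% lower, with all 27 acute-phase genes and 31 of 36 interferon genes higher. In control replicate 2 the higher ones were 26 of 27 acute-phase genes, 16 of 17 chemokines, 33 of 38 interferon genes and 13 of 14 guanylate-binding genes, with 0, 0, 0 and 1 lower. The median log2 ratios were 5.64, 3.97, 2.94 and 3.72, against −0.25 for all genes, and 5.74 for the acute-phase list with the 1 gene at 0 set to its bound. Against the 28 control replicate 1 barcodes of the same rule, 404 of 7230 genes were at least 2-fold higher (5.59%) and 1532 lower (21.2%), on 18273 remaining UMIs. Higher there were 11 of 27 acute-phase genes, 4 of 16 chemokines, 9 of 35 interferon genes and 8 of 13 guanylate-binding genes, with 0, 0, 2 and 0 lower. Of those 27 acute-phase genes 21 had 0 UMIs in the control barcodes, where a 2-fold difference of a low gene was not detectable at this depth. Of 45 smooth muscle genes 2 were higher and 13 lower, with a median log2 ratio of −0.17, or −0.28 with genes at 0 at their bounds. The acute-phase median was 3.27 over genes with UMIs in both pools and 0.30 with those bounds. With bounds it was −0.71 for chemokines, of which 14 of 16 had 0 UMIs in 1 pool. It was 0.12 for interferon and 1.73 for guanylate-binding genes, where all genes with UMIs in both pools had −0.63. Of 15 cytokine and inducible enzyme genes 2 were higher and 1 lower there. Their median was 0.10, or −0.54 with bounds. Against control replicate 2, 13 of 16 were higher and 0 lower. An alternative chosen after seeing the data, the same rule without the gene minimum, took 190 barcodes of control replicate 1 with 72449 remaining UMIs. There the acute-phase list was 0.104% (0.0814 to 0.130) and Lcn2 again had 0 UMIs.

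Wall matrix genes formed the other large group. The list took 1.28% of remaining UMIs in members, 0.775% in other LPS barcodes and 1.43% (1.27 to 1.62) in same-rule control barcodes. Of 33 tested within the library, 13 were higher and 2 lower, with a median log2 ratio of 0.79, or 26 and 1 and a median of 1.75 with haemoglobin in the denominator. Mgp, an inhibitor of calcification, was 2.02-fold higher at 3095 CPM. Bgn, a small proteoglycan, was 2.21-fold and Col4a1, of basement membranes, 2.30-fold higher. Postn, periostin, was 6.02-fold higher at 336. Dcn, decorin of fibroblasts, was 0.852 times the other barcodes, at 1446, while Thbs1 and Spp1 were lower at 0.323 and 0.143 times. Of 24 immediate-early genes tested, 1 was higher and 5 lower, with a median log2 ratio of −0.65, or 7 and 0 and 0.31 with haemoglobin in the denominator. The higher one was Ccn2, a matricellular growth factor, which had 1606 CPM, 3.93-fold above other LPS barcodes and at least 9.78-fold above same-rule control barcodes, which held 0.

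Leukocyte markers were lower than in the rest of the library. All 8 neutrophil and all 8 lymphoid markers and 7 of 8 phagocyte markers were at least 2-fold lower than in other LPS barcodes. With haemoglobin in the denominator the counts were 8, 8 and 5. The summed shares were 0.0386%, 0.00451% and 0.0811% in members and 1.87%, 0.0559% and 0.314% in the others. S100a8 had 136 CPM against 8027 and Ngp, a granule protein, 30.6 against 1454. The neutrophil RNA of the others was concentrated in few barcodes, of which 32 passed the neutrophil gate. Thinned to 300 UMIs, a neutrophil marker was found in 9.84% of members and 6.83% of the other barcodes without haemoglobin-rich ones, where 1 barcode held 142 such UMIs. A phagocyte marker was found in 17.2% of members and 27.6% of those others. Of the members with at least 3 mural markers, 38.7% also had a phagocyte, 23.3% a neutrophil and 3.79% a lymphoid marker at their full depth. Among the 27 members with 0 mural markers these shares were 22.2%, 22.2% and 3.70%. Markers of heart muscle went the other way: 7 of 7 tested were at least 2-fold higher under both denominators, and Myh6, the atrial and ventricular myosin heavy chain, had the largest ratio of the named genes, 7.79-fold (6.24 to 9.80) at 137 CPM, found in 10.8% of members. It stood at 109 (2 UMIs) in same-rule control barcodes and 0.483 in control replicate 2. Ttn, titin, had 84.0 CPM in members and 12.3 in other LPS barcodes. Its 876 CPM in the same-rule control barcodes came from 16 UMIs, all in 1 of the 28 barcodes. The part of heart tissue in these values was not tested.

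Gates on distinct markers sorted a minority of members. A gate needed at least 3 of the 8 markers of a class and 2 more than of the next class. It placed 1377 members as mural (37.6%), 96 as fibroblast, 19 as phagocyte, 18 as endothelial, 9 as cardiomyocyte, 3 as adipocyte, 1 each as neutrophil, platelet and mesothelial, and 2134 in none (58.3%). Among haemoglobin-rich barcodes, 215 of 750 (28.7%) passed the mural gate too. Mural-gated and ungated members hardly differed. Of 7051 genes, 15 (0.213%) were at least 2-fold higher and 34 (0.482%) lower in the mural-gated ones. No gene of the acute-phase, chemokine, interferon or guanylate-binding lists was among them, and Lcn2 had 4690 CPM in mural-gated and 4754 in ungated members. The smooth muscle genes among the higher ones, Myl9, Tpm2, Cnn1 and Smtn, are markers the gate used.

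The mural-gated members also differed from mural-gated control barcodes. Against the 1002 mural-gated barcodes of control replicate 2, 16.5% of 8954 genes were at least 2-fold higher and 26.9% lower. All 25 acute-phase and all 13 chemokine genes tested were higher, and 29 of 34 interferon genes. Lcn2 was at least 4834-fold higher, against 0 UMIs there, Gbp2 51.5-fold and Nfkbia 6.96-fold. Of 47 smooth muscle genes 10 were higher and 9 lower. Against the 54 mural-gated barcodes of control replicate 1, with 59272 remaining UMIs, 30.5% of 4103 genes were higher and 12.9% lower, with a median log2 ratio of 0.35. There 0 of 35 smooth muscle genes were higher and 12 lower (median −0.69), while 19 of 24 acute-phase and 30 of 33 interferon genes were higher. Of the 8 mural markers 0 were higher and 6 lower (median −1.54). The gate chose both pools on these markers, so their levels are no result. They are also part of the smooth muscle list, so its counts against both control replicates are a description only. The 45 mural-gated LPS barcodes that were no members had 1909 Lcn2 and 40252 Malat1 CPM, where mural-gated members had 4690 and 15228.

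Small groups of members stood apart from this common profile. The 19 phagocyte-gated members had a median Gm42418 share of 43.8%, near the limit, and held 9397 Ccl5 and 7289 Cd74 CPM, against 1306 and 838 in ungated members and 8020 and 5442 in phagocyte-gated LPS barcodes outside the rule. Their ribosomal protein share was 8.44%, above the 5.80% of ungated members. The 9 cardiomyocyte-gated members, with 8640 remaining UMIs together, held 463 Ttn CPM from 4 UMIs. Across Gm42418 share the common profile shifted gradually. From the 40 to 50% bin to the 60 to 70% bin the smooth muscle share went from 1.21% to 1.79%, ribosomal protein from 7.66% to 5.16%, phagocyte markers from 0.186% to 0.0528% and the acute-phase list from 2.99% to 2.43%. Over the 3659 members the Spearman correlation with the Gm42418 share was 0.31 for smooth muscle, 0.27 for nuclear-retained RNA, −0.24 for ribosomal protein and −0.04 for acute-phase RNA. Just outside the limit, barcodes of 35 to 40% had 0.968% smooth muscle, 3.25% acute-phase and 0.290% phagocyte marker RNA. Just inside it, those of 40 to 45% had 1.11%, 3.13% and 0.238%.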

How the data were processed

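Counts were deposited as 1 gene-by-barcode matrix of UMI counts per library, 3 in all; per the submitters' processing notes Cell Ranger 3.1, R 4.2.1 and Seurat 4.2.0 were used with the mm10 build, and the annotation release and the way barcodes were selected were not given in the sources used here. A barcode was kept from 500 UMIs, 300 genes and up to a mitochondrial share of 15%, and UMIs were summed over pools of barcodes. No doublet caller was run and no doublet was removed. Genes with at least 50 UMIs over both pools were compared, and a 2-fold difference was called with no test, since the LPS group is 1 library. Intervals are exact Poisson or Clopper-Pearson at 95%. A pool with 0 UMIs was set to a floor of 3. The members and gene lists were chosen with earlier results of these data known. Named were the 15 most abundant genes, the 12 with the largest ratio each way at 200 or more UMIs, the ribosomal RNA-like transcripts, and of each list up to 6 by UMIs and 2 by ratio each way. The comparison code was tested on simulated data. Sequences and coordinates came from GENCODE release 21 of the mouse and from RefSeq. Python 3.11.15 was used with numpy 2.4.6, scipy 1.17.1, pandas 2.3.3 and matplotlib 3.10.9. Alternatives changed the Gm42418, mitochondrial and gene limits, the denominator, the count filter and the marker gate.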

Additional observations from a re-analysis of the deposited data

How the results depend on the processing

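A gene minimum of 500 left 2327 members, and other limits gave 2978 to 4005. The smooth muscle share was 1.51% with a Gm42418 minimum of 30%, 1.65% with 50%, 1.62% and 1.55% with mitochondrial limits of 10% and 25%, 1.54% with a gene minimum of 500, 1.57% with haemoglobin kept in the denominator and 1.91% with mitochondrial UMIs left out of it. The nuclear-retained share was 1.68% with a Gm42418 minimum of 30%, 1.65% and 1.60% with the mitochondrial limits of 10% and 25%, 1.61% with haemoglobin kept, 1.96% without mitochondrial UMIs and 1.56% as a median over members. In the same order of Gm42418 minimums, mitochondrial limits, gene minimum and denominators, the acute-phase share was 2.60%, 2.45%, 2.60%, 2.47%, 2.60%, 2.50% and 3.05%, and 2.41% as a median over members. Genes at least 2-fold higher than in other LPS barcodes numbered 4293 with haemoglobin kept, 399 with at least 200 UMIs and 1598 with at least 1 UMI in each pool. Lower genes numbered 513, 816 and 2801. The mural gate took 2308 members with 2 markers and 1 more than the next class, and 462 after thinning to 300 UMIs. Of 43 alternatives, 13 stayed within the counting interval or within 1.5 times a count. No paired analysis was possible because the members come from 1 library, which also leaves no replicate to leave out. At a median of 817 remaining UMIs, genes of low level were seen in few members.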

Other observations

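Against other kept LPS barcodes, 6.84% of all genes were at least 2-fold higher in members and 15.6% lower, or 41.2% and 4.92% when haemoglobin was kept in the denominator. Of 14 heat shock genes tested, 1 was higher and 0 lower, or 7 and 0 with that denominator. Of 14 clock genes 2 were higher and 0 lower, or 9 and 0 with that denominator. Dbp, a clock output factor, had 5.25 CPM (counts per 1000000 remaining UMIs) in members, 6.17 in other LPS barcodes and 88.0 in control replicate 2. Fat cell markers took 0.131% of remaining UMIs in members, 0.123% in other LPS barcodes and 0.0308% in control replicate 2. Of 5 fat cell markers tested within the library 3 were higher and 0 lower, with a median log2 ratio of 1.44 beside −0.11 for all genes, or 2.40 beside 0.85 with haemoglobin in the denominator. Plin4, a coat protein of lipid droplets, had 180 against 42.8 CPM. Fabp4, a fatty acid carrier of fat cells and endothelium, had 955 against 1031 CPM in other LPS barcodes, and 1 member held 86 UMIs of it. Fth1, the ferritin heavy chain, had 8398 against 9538, and 1 member held 180. Fabp4 and Plin4 were named after their values were seen.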
